A study of Mus musculus with 6 samples.

Results

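Chromatin accessibility was described at 10 genes that carry out Wnt signalling inside the cell or feed back on it, in mouse small intestinal organoids given the cytokine RANKL. The members were Ctnnb1, the TCF/LEF factor genes Tcf7, Lef1, Tcf7l1 and Tcf7l2, the R-spondin receptor gene Lgr4, and the feedback inhibitor genes Axin2, Znrf3, Rnf43 and Nkd1. A window of 200 bp was given to a member where its nearest protein-coding gene end (GRCm38) belonged to that member and lay within 50 kb. This gave 58 windows at 10 genes, out of 55056 windows in all, of which 38490 (69.9%) lay within 50 kb of a gene end, at 15993 genes. Windows deeper inside long genes fall outside this rule, and Tcf7l2 had 6 of them. A window may act on a gene other than its nearest, so gene names mark places.

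Organoids are self-organising epithelial cultures with crypt-like buds. ATAC-seq cuts open chromatin with the transposase Tn5, so that reads pile up where DNA is accessible, and it measures no RNA. RANKL organoids were cultured for 3 days in ENR medium with 3 µM CHIR99021 and 1.5 mM valproic acid, then for 1 day in ENR medium, and then received RANKL at 100 ng/ml for 6 days (3 libraries). Control organoids were grown in ENR medium and sampled at day 6 (3 libraries). ENR medium held EGF at 50 ng/ml with conditioned media of Noggin (10%) and R-spondin1 (5%), so the Wnt-enhancing ligand R-spondin1 was present in both groups. CHIR99021 inhibits GSK3 and so switches on the same Wnt route that the member genes serve, and valproic acid inhibits histone deacetylases. The labels do not say whether control organoids had the CHIR99021 and valproic acid step, so RANKL and that step cannot be told apart where they did not. Control libraries carry the name CVENRD6 in their descriptions, and the name alone was not taken to settle this. Both groups came from a line labelled line26 wild type, Lgr5GFPDTR/+, made from 1 female mouse. The allele puts GFP and the diphtheria toxin receptor at Lgr5, a receptor gene of the same pathway. Replicates were 3 numbered differentiation experiments of this line, so the p-values measure the spread between experiments and not between animals.

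In canonical Wnt signalling a complex that contains Axin, APC and GSK3 marks β-catenin for destruction. Wnt binding to Frizzled and LRP receptors stops this, and β-catenin then enters the nucleus and joins TCF/LEF factors on DNA. R-spondins bind LGR receptors and remove the ubiquitin ligases ZNRF3 and RNF43, which otherwise clear Frizzled from the membrane. The pathway keeps crypt stem cells dividing in the intestine, and several members, Axin2 among them, are also its targets. RANKL is the signal that drives intestinal epithelium toward M cells, the cells that carry antigens across the gut lining.

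Counts in the windows summed to 322173, 466521 and 828445 in RANKL libraries 1 to 3, and to 920681, 976881 and 455083 in control libraries 1 to 3. Accessibility is given as CPM, the counts scaled to each library's total over the 55056 windows, and 3 counts were worth 3.07 to 9.31 CPM. Pearson correlations of log2(CPM + 1) were taken across the 21618 windows with enough counts to be tested. They were 0.65 to 0.75 among RANKL libraries, 0.81 to 0.86 among control libraries and 0.39 to 0.49 between the groups. All fold changes are log2 values of RANKL over control. A window or gene was called where edgeR's quasi-likelihood test, adjusted by Benjamini-Hochberg over all windows or genes tested, gave an adjusted p at or under 0.05.

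The 3 member windows that lie wholly within a RefSeq promoter entry (GRCm38.p6, plus strand, 5′ to 3′) are shown because results below turn on them. Those of Ctnnb1 and Tcf7l2 were more accessible with RANKL, and that of Lgr4 had no called difference in 200 bp. Capitals would mark TCAAAG or its reverse complement CTTTGA, a form of the core of TCF/LEF sites, on either strand. These windows hold neither, and other forms of the core were not searched.
Ctnnb1 start window, chr9:120933210-120933409: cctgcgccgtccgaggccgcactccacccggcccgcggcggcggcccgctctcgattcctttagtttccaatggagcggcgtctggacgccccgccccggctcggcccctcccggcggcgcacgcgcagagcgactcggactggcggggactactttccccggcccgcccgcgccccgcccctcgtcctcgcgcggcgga
Tcf7l2 start window, chr19:55741613-55741812: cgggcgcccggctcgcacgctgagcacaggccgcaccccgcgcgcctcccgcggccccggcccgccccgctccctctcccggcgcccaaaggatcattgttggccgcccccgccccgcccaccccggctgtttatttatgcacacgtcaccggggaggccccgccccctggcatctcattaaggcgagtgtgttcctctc
Lgr4 start window, chr2:109917487-109917686: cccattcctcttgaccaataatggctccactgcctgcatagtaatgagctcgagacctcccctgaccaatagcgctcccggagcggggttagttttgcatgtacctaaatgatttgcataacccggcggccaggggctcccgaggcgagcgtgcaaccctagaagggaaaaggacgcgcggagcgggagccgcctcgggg

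The promoter table (250 bases before to 50 after each listed start) held 16 promoters of 9 members and none for Znrf3. TCAAAG or CTTTGA occurred in 1 of the 16 (6.25%), against 5251 of all 32817 promoters in the table (16.0%). That promoter belongs to an internal start of Lef1 and is shown because it is the member promoter with either of these sequences. It holds TCAAAG 2 times, in capitals, and other forms of the core were neither searched nor marked. It overlapped none of the windows, so no accessibility was measured there.
Lef1 internal start, chr3:131156044-131156343, plus strand: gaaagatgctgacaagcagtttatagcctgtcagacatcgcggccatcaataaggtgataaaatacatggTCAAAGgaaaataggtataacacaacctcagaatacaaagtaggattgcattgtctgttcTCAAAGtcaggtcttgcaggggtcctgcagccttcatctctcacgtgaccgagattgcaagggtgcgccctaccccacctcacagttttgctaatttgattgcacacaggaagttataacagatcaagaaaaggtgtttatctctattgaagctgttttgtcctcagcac
A match to 6 letters is a description of the sequence and not a binding site, and no match says only that the letters are not in this stretch.

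Summed over their windows, 9 of the 10 member genes showed no called change, and Lef1 was lower with RANKL. The count was 0 genes higher and 1 lower of 10 tested. Over all 12463 genes tested, 7.02% were higher and 8.29% lower. The median log2 fold change was -0.10 over the members and 0.01 over all genes, and 2 members, Lef1 and Lgr4, both with lower values, had an unadjusted p under 0.05, as did 3506 of all 12463 genes. DESeq2 called none of the 10, against 3.13% of all genes higher and 3.07% lower. The RANKL and control libraries overlapped at 9 of the 10 genes; they did not overlap at 30.7% of all genes tested.

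**Figure D1:**
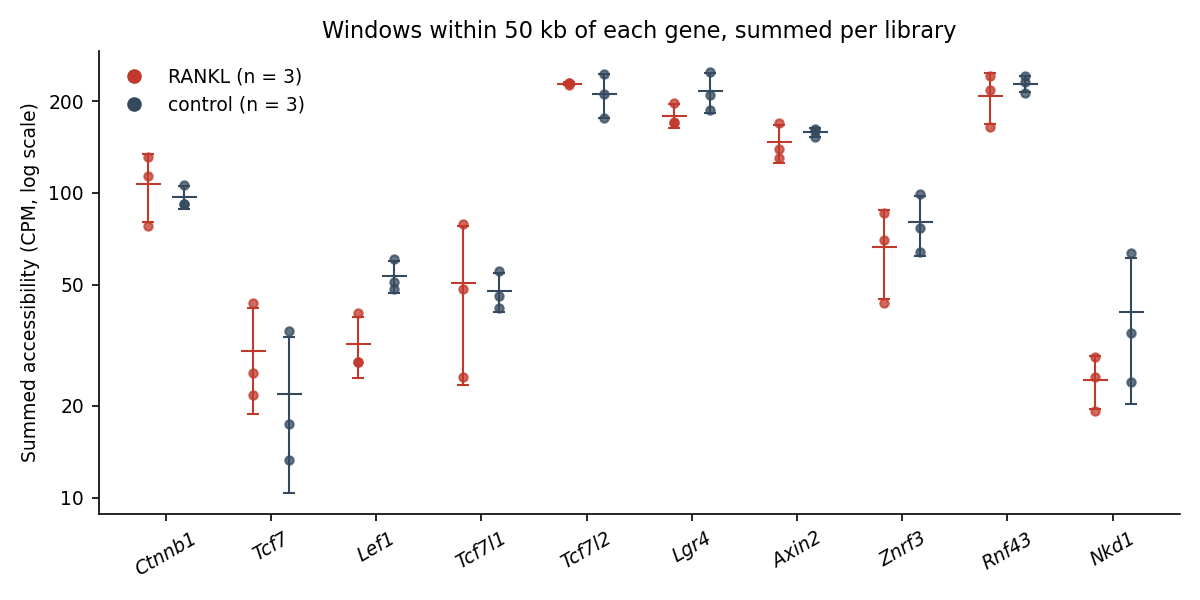
Accessibility summed over the windows of each member gene (y axis, CPM on a log scale), with 1 point per library, the group mean as a bar and the SD as whiskers (n = 3 per group), RANKL left of control. Lef1 is the gene where every RANKL library (27.8 to 40.4 CPM) lies below every control library (48.3 to 60.8 CPM); the other 9 genes overlap.

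Single windows were called in both directions at genes whose sums were not called. Of the 58 member windows, 25 had enough counts to be tested and 33 did not. Of the 25, 3 were called higher (at Ctnnb1, Tcf7l2 and Lgr4) and 2 lower (at Tcf7l2 and Axin2). Of all 21618 windows tested, 10.0% were higher and 10.0% lower, so the members' counts lie near the background. An unadjusted p under 0.05 was reached by 6 of the 25, and by 6754 of all 21618. The RANKL and control libraries did not overlap at 10 of the 25 windows, 3 above and 7 below control, against 33.3% of all tested windows in either direction. Counts in 2 kb around the same centres allowed 55 member windows to be tested, of which 4 were higher and 5 lower (8.37% and 10.2% of all 2-kb windows tested). With loess offsets on the 2-kb counts, which remove a trend with abundance, 5 were higher and 2 lower (7.67% and 6.16% of all).

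Windows near gene ends and farther away were also counted apart. Of the 6 tested member windows within 1 kb of a gene end, 2 were higher and 0 lower, with a median log2 fold change of 0.53; over all 8176 such windows 9.22% were higher and 2.92% lower, with a median of 0.15. Of the 19 tested member windows 1 to 50 kb from a gene end, 1 was higher and 2 lower, with a median of -0.31; over all 9715 such windows 9.73% were higher and 11.4% lower, with a median of -0.08. No test of the difference between these places was made. In 200 bp a library's windows held 33.9 to 36.5% of its 2-kb reads with RANKL and 39.9 to 41.0% in control, so counts at both widths need not give the same fold change.

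**Figure D2:**
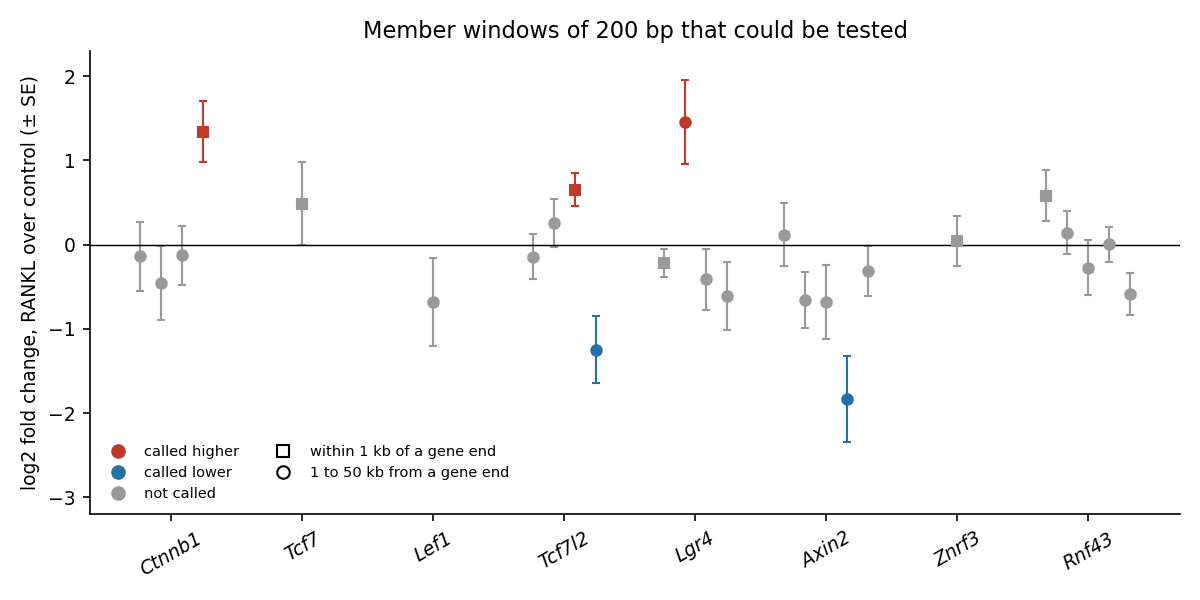
The log2 fold change of RANKL over control, with its SE, for the 25 member windows of 200 bp that could be tested, grouped by gene; squares lie within 1 kb of a gene end and circles 1 to 50 kb away. Red windows at Ctnnb1, Tcf7l2 and Lgr4 were called higher, blue windows at Tcf7l2 and Axin2 lower, and the 20 grey ones were not called; Tcf7l1 and Nkd1 had no window to test.

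Ctnnb1 encodes β-catenin, the protein that carries the Wnt signal to the nucleus, and its start window opened with RANKL. The gene lies at chromosome 9, 120933400 to 120960507, and had 5 windows. The start window, whose centre lay 91 bp upstream of the first listed start, had 34.1, 60.0 and 27.8 CPM in RANKL libraries 1 to 3, against 18.5, 16.4 and 11.0 CPM in control libraries. Every RANKL library was above every control library, and RANKL library 2 stood highest. On the log2 scale it rose by 1.34 ± 0.36 (SE, edgeR adjusted p = 0.0026). In 2 kb the same place had 0.77 ± 0.22 (adjusted p = 0.00843). It was not called without RANKL replicate 2 (0.94, adjusted p = 0.144) and held in the other 13 settings that gave a value.

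The windows farther upstream of Ctnnb1 did not follow its start. These 3, at 14115, 32309 and 39721 bp from the start, had log2 fold changes of -0.13, -0.45 and -0.14 (edgeR adjusted p of 0.842, 0.516 and 0.851). The window inside the gene was too shallow to test in 200 bp. In 2 kb it had the sign of the start and was not called (0.59, edgeR adjusted p = 0.430). The sum over all 5 was 77.6, 130.8 and 113.5 CPM with RANKL and 92.3, 106.5 and 92.3 CPM in control. This came to 0.15 ± 0.18 (log2, SE, adjusted p = 0.607), with a 95% interval of -0.19 to 0.50. Within 5 kb of a gene end lay the start window alone, so the sum there repeats that window. It rose by 1.22 (edgeR adjusted p = 0.0155), and of all genes at that distance 3.82% were higher and 4.96% lower.

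Tcf7l2 encodes TCF4, the main TCF/LEF factor of the adult intestinal epithelium, and its windows moved apart. The gene (chromosome 19, 55741797 to 55933659) had 10 windows under the rule. Its start window, 98 bp upstream of the first listed start, had 93.1, 92.2 and 76.1 CPM with RANKL and 55.4, 54.3 and 59.3 CPM in control. All RANKL libraries were above all controls, at 0.65 ± 0.20 (log2, SE, edgeR adjusted p = 0.00833). A window 46630 bp downstream of that start, inside the gene (55788341 to 55788540), had 12.4, 12.9 and 14.5 CPM with RANKL and 33.7, 42.0 and 19.8 CPM in control. All RANKL libraries were below all controls there, at -1.25 ± 0.39 (log2, SE, edgeR adjusted p = 0.0124).

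Neither Tcf7l2 call held in 2 kb (start 0.23, adjusted p = 0.340; inner window -0.48, adjusted p = 0.204) or with DESeq2 (0.0746 and 0.107). The inner window was too shallow to test at equal depth or without control replicate 1 or 2. The start call also ended without RANKL replicate 2 (adjusted p = 0.0612), without control replicate 2 (0.0564) and at equal depth (0.187). It held in 2-kb counts with loess offsets, chosen after the data were seen, at 0.52 (adjusted p = 0.00617).

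Summed over its windows Tcf7l2 had 229.7, 229.4 and 225.7 CPM with RANKL and 246.6, 210.9 and 175.8 CPM in control, the highest control level lying above all RANKL values. This gave 0.06 ± 0.12 (log2, SE, edgeR adjusted p = 0.820), with a 95% interval of -0.19 to 0.30. Within 5 kb of a gene end it was 0.62 (adjusted p = 0.0207), from the start window and 1 shallow window near the far end. Of the 6 windows deeper in the gene, 4 could be tested and none was called. Their log2 fold changes were 0.40, -0.98, 0.25 and 0.31.

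Lef1 encodes a TCF/LEF factor that is itself a Wnt target in many tissues, and it was the member gene with a lower sum. The gene lies at chromosome 3, 131110297 to 131224357. Its 5 windows together had 40.4, 27.9 and 27.8 CPM with RANKL and 60.8, 51.2 and 48.3 CPM in control. Every RANKL library was below every control library, and the means were 32.0 ± 7.2 CPM with RANKL and 53.5 ± 6.5 CPM in control (SD, n = 3 each). Lef1 thus fell by 0.84 ± 0.29 on the log2 scale (SE, edgeR adjusted p = 0.0275).

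The Lef1 fall came from few reads. The sums were 13, 13 and 23 counts with RANKL and 56, 50 and 22 counts in control. Only the window 2139 bp inside the gene could be tested alone: it had 15.5, 12.9 and 7.24 CPM with RANKL and 21.7, 13.3 and 19.8 CPM in control, which overlapped (log2 fold change -0.68 ± 0.52 SE, edgeR adjusted p = 0.392). The call of the sum ended in 10 of 17 settings. Among them were 2-kb counts (-0.38, adjusted p = 0.114), DESeq2 (-0.83, 0.136) and the replicate block (-0.78, 0.0657). It also ended without RANKL replicate 2 (0.0802), RANKL replicate 3 (0.156), control replicate 1 (0.151) or control replicate 2 (0.0545). In windows within 200 kb it was -0.70 (adjusted p = 0.000929), where 9.31% of all genes were lower.

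Tcf7 encodes TCF1, a factor best known from T cells and also a Wnt target. It lies at chromosome 11, 52246527 to 52283383, on the minus strand, and had 2 windows. The one 28 bp outside the gene, at its start, had 9.31, 23.6 and 18.1 CPM with RANKL and 11.9, 10.2 and 19.8 CPM in control. The libraries overlapped (0.49 ± 0.50, log2, SE, edgeR adjusted p = 0.542). The sum was 43.5, 25.7 and 21.7 CPM with RANKL and 17.4, 13.3 and 35.2 CPM in control, a log2 fold change of 0.47 ± 0.42 (SE, adjusted p = 0.486). Its 95% interval was wide, at -0.34 to 1.29.

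Tcf7l1 encodes TCF3, which acts mostly as a repressor of Wnt targets. The gene (chromosome 6, 72626371 to 72789045, minus strand) had 5 windows, all under the filter on low counts. Its start window, 572 bp from the gene, held 0, 1 and 8 counts with RANKL and 12, 20 and 6 counts in control. In CPM this was 0, 2.14 and 9.66 with RANKL and 13.0, 20.5 and 13.2 in control, with no overlap. In 2 kb it was lower, at -0.82 ± 0.30 (log2, SE, edgeR adjusted p = 0.0487), a call lost with loess offsets (-0.71, 0.114). The groups overlapped in 2 kb, with 17.81 CPM in RANKL library 3 and 17.68 CPM in control library 3. In 200 bp without the filter the start window was not called (-1.503, edgeR adjusted p = 0.1425).

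The far end of Tcf7l1 had the opposite sign. A window 9943 bp inside the distal end (chosen after its values were seen) held 12.4, 36.4 and 20.5 CPM with RANKL and 9.78, 5.12 and 6.59 CPM in control, all RANKL libraries being higher. Without the filter on low counts its log2 fold change was 1.75 ± 0.53 (SE, edgeR adjusted p = 0.0166, where 5.82% of all windows were higher and 3.58% lower); in 2 kb it was 0.34 (adjusted p = 0.493). The sum over the gene was 24.8, 79.3 and 48.3 CPM with RANKL and 55.4, 46.1 and 41.8 CPM in control. It gave 0.09 ± 0.25 (SE, edgeR adjusted p = 0.862), and its sign turned without RANKL replicate 2 (-0.28) and in 2 kb (-0.18).

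Lgr4 encodes the R-spondin receptor that is spread more widely through the epithelium than Lgr5. The gene lies at chromosome 2, 109917647 to 110014257, and had 8 windows. Its start window was the most accessible of all 58, with 99.3, 90.0 and 96.6 CPM in RANKL libraries and 119.5, 109.5 and 114.3 CPM in control libraries. All RANKL values lay below all controls, but the difference of -0.22 ± 0.17 (log2, SE) was not called (edgeR adjusted p = 0.404). In 2 kb it was lower, at -0.40 ± 0.15 (adjusted p = 0.0464), and with loess offsets it was not (-0.09, 0.727).

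A window inside Lgr4 opened with RANKL. It lies at 109985031 to 109985230, 67483 bp downstream of the start, and had 31.0, 25.7 and 19.3 CPM with RANKL and 9.78, 7.17 and 11.0 CPM in control. There was no overlap, at 1.45 ± 0.50 (log2, SE, edgeR adjusted p = 0.0240). In 2 kb, where it held 24, 27 and 52 counts with RANKL and 17, 18 and 10 in control, it was 1.47 ± 0.34 (adjusted p = 0.000895). In 200 bp the call ended in 7 of 13 settings: with DESeq2 (0.0678), with loess offsets (0.0569), and without RANKL replicate 1 (0.0813), 2 (0.0847) or 3 (0.0584) or control replicate 1 (0.0750) or 2 (0.138). Over the 6 sets of 5 libraries it was 1.24 to 1.66.

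The neighbours of that window had the opposite sign. Those 74284 and 88431 bp from the start had log2 fold changes of -0.41 (edgeR adjusted p = 0.455) and -0.61 (0.296). Summed, Lgr4 had 170.7, 169.3 and 198.0 CPM with RANKL and 249.8, 209.9 and 186.8 CPM in control, a log2 fold change of -0.28 ± 0.13 (SE, adjusted p = 0.118) with an unadjusted p of 0.0267.

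Axin2 encodes a scaffold of the β-catenin destruction complex and is the textbook feedback target of Wnt signalling. In 200 bp 1 of its windows was called lower, in 2 kb 2 were higher and 1 lower, and their sum was not called. The gene lies at chromosome 11, 108917828 to 108950783, with its listed start at 108920349, and had 7 windows. A window inside the gene (108936353 to 108936552, 16103 bp downstream of the listed start) had 6.21, 8.57 and 6.04 CPM with RANKL and 30.4, 20.5 and 26.4 CPM in control. No library overlapped, and the means were 6.94 ± 1.42 CPM with RANKL and 25.8 ± 5.0 CPM in control (SD, n = 3 each). It fell by 1.83 ± 0.51 on the log2 scale (SE, edgeR adjusted p = 0.00396), and had a log2 fold change of -1.22 ± 0.27 in 2 kb (adjusted p = 0.000526). This call held in all 12 settings that gave a value, the highest adjusted p being 0.04996 without RANKL replicate 3. Without control replicate 1 and at equal depth the window was too shallow to test.

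The other inner windows of Axin2 were not called. The window nearest to the start, 423 bp downstream of it, had 15.5, 21.4 and 25.4 CPM with RANKL and 35.8, 42.0 and 26.4 CPM in control (log2 fold change -0.66 ± 0.34 SE, edgeR adjusted p = 0.162). In 2 kb its libraries overlapped, at 46.4, 44.4 and 50.4 CPM with RANKL and 47.2, 52.7 and 50.4 CPM in control, with -0.16 (adjusted p = 0.598), and with loess offsets the sign turned (0.11, 0.724). The next one, 5017 bp downstream, had 9.31, 17.2 and 14.5 CPM with RANKL and 26.1, 19.5 and 26.4 CPM in control (-0.68 ± 0.44 SE, edgeR adjusted p = 0.284). In 200 bp, at all 3 inner windows, every RANKL library lay below every control library. Of all tested windows, 33.3% likewise had no overlap, in either direction.

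Of the 4 windows outside Axin2, the 2 that passed the filter in 200 bp were not called. The nearer upstream one, 13300 bp before the listed start, had 18.6, 25.7 and 27.8 CPM with RANKL and 15.2, 25.6 and 35.2 CPM in control, with overlap (0.12 ± 0.37, log2, SE, edgeR adjusted p = 0.866). The farther downstream one, 60309 bp after that start, had 34.1, 27.9 and 32.6 CPM with RANKL and 43.4, 35.8 and 44.0 CPM in control, all RANKL libraries being lower (-0.31 ± 0.30, log2, SE, edgeR adjusted p = 0.501).

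The other 2, described after their values were seen and under the filter in 200 bp, were higher with RANKL in 2 kb. The upstream one (108898171 to 108898370, 22079 bp before the listed start) had 37.3, 12.9 and 31.4 CPM with RANKL and 5.43, 6.14 and 4.40 CPM in control. In 2 kb it held 38, 39 and 79 counts with RANKL and 11, 21 and 10 in control, 2.17 ± 0.31 (log2, SE, edgeR adjusted p = 1.48e-07). The downstream one (108955582 to 108955781, 4898 bp beyond the gene) had 9.31, 25.7 and 32.6 CPM with RANKL and 3.26, 3.07 and 0 CPM in control. In 2 kb it held 4, 23 and 51 counts with RANKL and 8, 15 and 0 in control, 1.955 ± 0.494 (adjusted p = 0.00261), with overlap: RANKL library 1, at 4.53 CPM in 2 kb, lay below control library 2 at 6.12 CPM.

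Without the filter on low counts both of these windows were called in 200 bp, at 2.32 (adjusted p = 0.000625) and 3.26 (4.7e-05), and DESeq2 called both as well (0.00544 and 0.0024), against 5.1% of all windows higher and 2.28% lower with that tool. Summed over all 7 windows, Axin2 had 130.4, 139.3 and 170.2 CPM with RANKL and 159.7, 152.5 and 162.6 CPM in control. That was -0.08 ± 0.14 (log2, SE, edgeR adjusted p = 0.770), with a 95% interval of -0.36 to 0.20. Its sign turned in 5 settings, 2-kb counts among them (0.04).

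**Figure D3:**
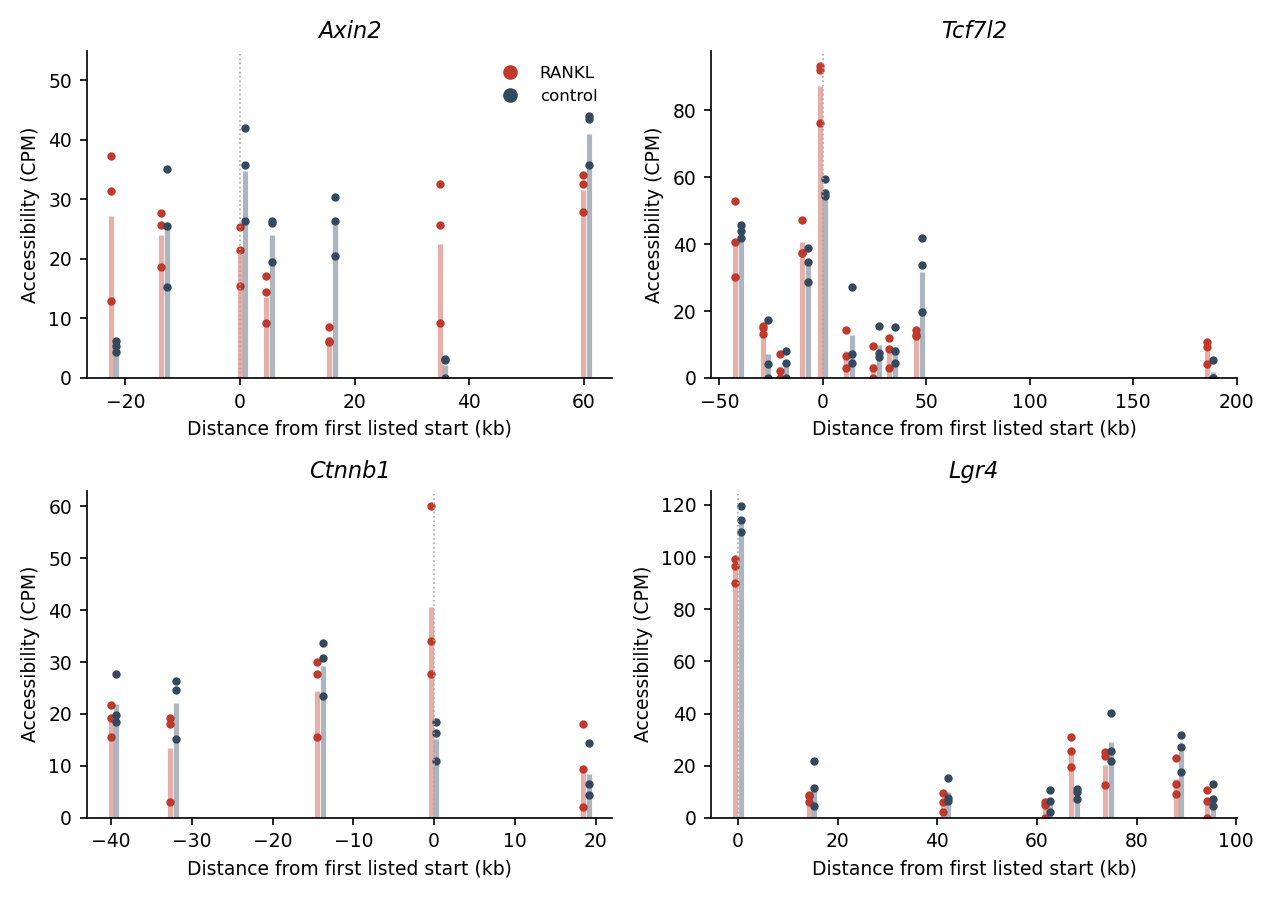
Accessibility (CPM) of every window at Axin2, Tcf7l2, Ctnnb1 and Lgr4 against its distance from the first listed start (kb, dotted line at the start), with 1 point per library and bars for group means, RANKL drawn just left of control. At Axin2 the upstream window (12.9 to 37.3 CPM with RANKL, 4.40 to 6.14 CPM in control) and the inner window (6.04 to 8.57 CPM with RANKL, 20.5 to 30.4 CPM in control) lie on opposite sides; at Tcf7l2 and Ctnnb1 the start window stands out, and at Lgr4 the inner window at 67 kb.

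Znrf3 and Rnf43 encode membrane ubiquitin ligases that remove Frizzled receptors, and no window of either gene was called in 200 bp. Znrf3 (chromosome 11, 5276329 to 5444847) had 6 windows, 1 of them tested. That window, 47 bp outside the gene, had 27.9, 36.4 and 38.6 CPM with RANKL and 28.2, 36.9 and 46.2 CPM in control, with overlap (log2 fold change 0.05 ± 0.29 SE, edgeR adjusted p = 0.935). The Znrf3 sum was 43.5, 85.7 and 70.0 CPM with RANKL and 64.1, 99.3 and 76.9 CPM in control. Its log2 fold change was -0.25 ± 0.21 (SE, adjusted p = 0.454), and the sign turned within 5 kb (0.15).

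Rnf43 (chromosome 11, 87663087 to 87735539) was the member whose 5 windows were all deep enough to test. The one 528 bp upstream of the gene had 31.0, 47.2 and 41.0 CPM with RANKL and 26.1, 35.8 and 17.6 CPM in control (log2 fold change 0.58 ± 0.30 SE, edgeR adjusted p = 0.172). The one 46889 bp downstream of the start, had 27.9, 45.0 and 37.4 CPM with RANKL and 52.1, 64.5 and 59.3 CPM in control, with no overlap. It had -0.59 ± 0.25 (SE, adjusted p = 0.0740), and was called lower in 2 kb at -0.59 ± 0.17 (adjusted p = 0.00788), which was lost with loess offsets (-0.31, 0.197). The sum was 164.5, 242.2 and 218.5 CPM with RANKL and 212.9, 241.6 and 230.7 CPM in control (-0.12 ± 0.12 SE, adjusted p = 0.561). Its 95% interval, -0.36 to 0.12, is the narrowest of the feedback genes.

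Nkd1 encodes a cytoplasmic inhibitor that binds Dishevelled and is a Wnt target. The gene (chromosome 8, 88521342 to 88594887) had 5 windows, none deep enough to test. The window 414 bp inside its end held 4, 4 and 4 counts with RANKL and 6, 5 and 7 counts in control, or 12.4, 8.57 and 4.83 CPM with RANKL and 6.52, 5.12 and 15.4 CPM in control, which overlapped. The sum was 24.8, 19.3 and 29.0 CPM with RANKL and 23.9, 34.8 and 63.7 CPM in control, or -0.61 ± 0.35 (log2, SE, edgeR adjusted p = 0.236). The sum was called lower at equal depth (-1.43, 0.0227) and within 200 kb (-0.97, 0.0130). It was near 0 in 2 kb (-0.11, edgeR adjusted p = 0.745). Without control replicate 3, the library with the highest value, it was -0.26 (adjusted p = 0.736). A window 25758 bp inside the gene (88547001 to 88547200, chosen after its values were seen) held 0, 0 and 6 counts with RANKL and 9, 11 and 11 in control. In 2 kb it had 0, 5 and 20 counts with RANKL and 29, 25 and 22 in control, and -1.51 ± 0.48 (SE, edgeR adjusted p = 0.0185). In 200 bp without the filter on low counts this window was not called (-1.915, edgeR adjusted p = 0.107).

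**Figure D4:**
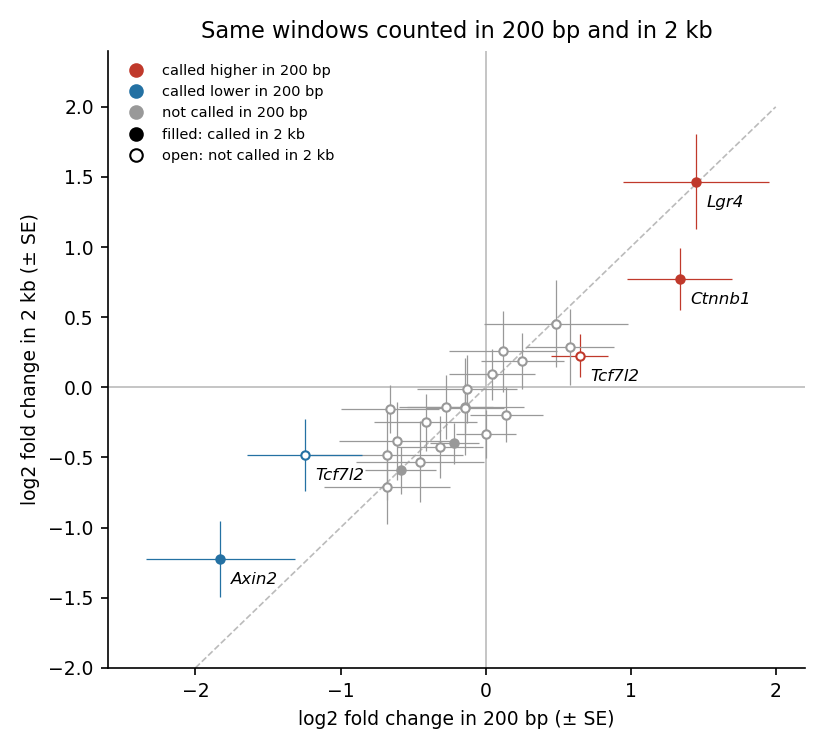
The log2 fold change of RANKL over control for member windows counted in 200 bp (x axis) and in 2 kb around the same centre (y axis), each with its SE; filled points were called in 2 kb and the dashed line marks equal values. The called windows at Axin2, Ctnnb1 and Lgr4 kept their call in 2 kb, while both at Tcf7l2 moved toward 0 (0.23 and -0.48).

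Among other genes of the pathway, most were not called. The 6 lists held 110 genes, of which 92 could be tested, 5 were higher and 13 lower, with a median log2 fold change of -0.11; over all genes tested 7.02% were higher and 8.29% lower. DESeq2 called 2 higher and 6 lower, against 3.13% and 3.07% of all genes. The lists were chosen with results of these data known, so the counts are a description.

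Ligand genes were mixed. Of 11 tested Wnt ligand and secretion genes, 1 was higher and 1 lower. Wnt10a, a ligand gene, had 93.1, 96.5 and 89.3 CPM with RANKL and 54.3, 44.0 and 46.1 CPM in control (log2 fold change 0.91 ± 0.22 SE, edgeR adjusted p = 0.000718). Wls, which encodes the carrier that takes Wnt proteins to the cell surface, had 86.9, 90.0 and 128.0 CPM with RANKL and 166.2, 141.3 and 178.0 CPM in control (-0.59 ± 0.16 SE, edgeR adjusted p = 0.00258). The groups overlapped at neither gene, and both calls held in every setting that gave a value (17 for Wnt10a, 18 for Wls).

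Receptor genes, where called, were lower. Of 15 tested R-spondin and receptor genes, 0 were higher and 3 lower, against 7.02% and 8.29% of all genes tested. The Frizzled receptor gene Fzd1 had 40.4, 19.3 and 31.4 CPM with RANKL and 56.5, 74.7 and 61.5 CPM in control (-1.14 ± 0.27 SE, edgeR adjusted p = 0.000647), a call that held in 18 settings. Fzd4 had -0.48 ± 0.16 (SE, edgeR adjusted p = 0.0217), a call that ended in 9 of 18 settings. Among them were DESeq2 (0.1145) and the sets without RANKL replicate 2 (0.120), control replicate 1 (0.0834) or control replicate 2 (0.0986). Lgr5, where the line carries its reporter allele, was the third, at -1.06 ± 0.21.

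Genes of the cytoplasm, nucleus and cell surface moved in both directions. Of 18 tested transducer and destruction complex genes, 2 were higher and 2 lower. Csnk1a1, encoding the casein kinase that primes β-catenin, had 0.45 ± 0.14, and Axin1 0.64 ± 0.23 (log2 fold change, SE), while Apc had -0.63 ± 0.23 and its partner Amer1 -0.55 ± 0.18. All 4 calls ended without control replicate 1, where the adjusted p was 0.0904 for Csnk1a1, 0.0642 for Axin1, 0.0930 for Apc and 0.316 for Amer1. All 4 calls also ended with DESeq2 (adjusted p of 0.0653, 0.169, 0.164 and 0.134, in that order). That of Csnk1a1 also ended without RANKL replicate 1 (0.0568), that of Amer1 without RANKL replicate 2 (0.168), and that of Apc without RANKL replicate 1 (0.141) or 3 (0.126) or control replicate 2 (0.146). The Axin1 call held without RANKL replicate 1 alone among the 6 sets of 5 libraries, with an adjusted p up to 0.179, and it ended in 2 kb (0.19, 0.491). With the replicate block Axin1 (0.65, adjusted p = 0.0603) and Apc (-0.62, adjusted p = 0.0623) were not called. Of 16 nuclear cofactor genes, 1 was higher and 2 lower: the β-catenin coactivator gene Bcl9l had 1.04 ± 0.23 (edgeR adjusted p = 0.000203), and the Groucho corepressor genes Tle4 and Tle1 had -0.45 ± 0.11 and -0.41 ± 0.12. The Bcl9l call ended in 2 kb (0.39, 0.0849) and the Tle4 call with loess offsets (0.118). The Tle1 call ended with DESeq2 (0.0619), with loess offsets (0.196) and without RANKL replicate 3 (0.125). Of 13 inhibitor genes, 1 was higher and 1 lower. Kremen1, a Dickkopf receptor gene, had 0.96 ± 0.29. Its call was lost without RANKL replicate 2 (0.0511) or 3 (0.0540) or control replicate 2 (0.69, 0.140). It was also lost in 2 kb (0.30, 0.263) and with DESeq2 (0.0637). Tmem64 had -0.89 ± 0.23, a call that held in 18 settings.

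Genes on the list of crypt targets, where called, were lower. Of 19 tested, 0 were higher and 4 lower, against 7.02% and 8.29% of all genes tested. The summed accessibility of the list was 1533 to 1683 CPM with RANKL and 1812 to 1896 CPM in control. Sox9, a crypt transcription factor gene, had 96.2, 107.2 and 107.4 CPM with RANKL and 199.9, 146.4 and 162.6 CPM in control (-0.72 ± 0.15 SE, edgeR adjusted p = 0.000113). That call ended within 5 kb of the gene's ends (-0.06, 0.900). Cd44 and Rgmb had -0.47 ± 0.14 and -0.42 ± 0.13, and both calls ended without RANKL replicate 3 (0.0575 and 0.0894) or control replicate 1 (0.0937 and 0.0587). Both also ended with DESeq2 (0.0719 and 0.0834) and with loess offsets in 200 bp (0.0788 and 0.146). That of Rgmb ended without control replicate 3 (0.0557) as well. The fourth, Zbtb33 (-0.92 ± 0.29), encodes Kaiso, a repressor rather than a crypt gene. Its call ended without RANKL replicate 2 (0.0541) or 3 (0.0670) or control replicate 1 (0.112) or 2 (0.0544). It also ended in 2 kb (-0.37, 0.145) and with DESeq2 (0.0969).

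Some marker genes of cell types were called too, beside shares over all genes tested of 7.02% higher and 8.29% lower. All 13 markers of intestinal epithelium could be tested, 0 were higher and 1 lower, at 1517 to 1692 CPM summed with RANKL and 1644 to 1721 CPM in control. M cell markers had 4 of 10 tested higher and 1 lower, at 630.1 to 838.1 CPM with RANKL and 456.6 to 473.6 CPM in control. Crypt stem cell markers, a list that includes Axin2 and Lgr5, had 4 of 9 lower and 0 higher, at 823.1 to 906.5 CPM with RANKL and 958.1 to 1094 CPM in control. Lgr5 and Rgmb, already given above as lower, are among these 4. The list also shares Rgmb, Ascl2, Slc12a2 and Tnfrsf19 with the crypt target list, so the counts are not separate. Paneth cell markers had none called of 4 tested, at 109.3 to 136.6 CPM with RANKL and 127.4 to 161.7 CPM in control. Haematopoietic markers, of which 6 of 12 had no window, had 1 of 3 higher (105.5 to 152.2 CPM with RANKL, 94.2 to 105.5 CPM in control), and mesenchymal and endothelial markers 2 of 8 (313.5 to 336.8 CPM with RANKL, 206.6 to 315.0 CPM in control). The part of these shifts in the values at the Wnt genes was not tested. In bulk chromatin, fewer cells of a type and less accessibility per cell cannot be told apart.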

How the data were processed

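The authors deposited raw counts of reads in 200-bp windows for each of 6 bulk ATAC-seq libraries, made from 50000 cells and sequenced at 38 bp per the labels' protocols. The authors also deposited normalized scores for 2-kb windows; from the values, these are a scaled log of a count, and whole counts came back to within 0.0058. The submitters' processing notes name BWA 0.7.17, MACS2 2.2.7, fastp 0.20.1, DESeq2 1.34.0 and Picard with mm10/GRCm38, without roles. The choice of windows, duplicate handling and any Tn5 shift: not given in the sources used here. Reads without molecular identifiers are not independent molecules.

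Windows were assigned to the nearest end of 21896 protein-coding genes (RefSeq, GRCm38.p6). Windows and gene sums were tested over the whole tables with edgeR 4.0.16 (TMM, filterByExpr, robust quasi-likelihood, no covariate; R 4.3.3), with the code tested on simulated data; the SE is the fold change over the root of F, and 95% intervals used the normal quantile. DESeq2 1.42.0, loess offsets (the lowess function of R, span 0.4), RLE factors, no filter, equal depth, 2-kb counts, other distances, a replicate block and leaving out each library were alternatives. The labels number differentiation experiments 1 to 3 in both groups. Deviations of same-numbered libraries from their group means correlated at -0.0319, 0.0157 and -0.0115 across the windows tested. All member genes were named, with per-library values for called windows and the window nearest to a gene end, and up to 4 genes per pathway list by adjusted p. Members and lists were chosen with earlier results of these data known.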

Additional observations from a re-analysis of the deposited data

How the results depend on the processing

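The 2-kb counts with loess offsets were chosen after seeing the data; the other alternatives were planned. Windows called higher, 2166 in all, were 4181 in 2-kb counts, 3831 in 2-kb counts with loess offsets, 567 at equal depth and 1337 to 2802 without 1 library; windows called lower, 2169, were 5076 in 2-kb counts, 989 with DESeq2, 764 at equal depth and 1475 to 2229. Genes called higher, 875, were 1462 in 2-kb counts, 1516 with loess offsets on them, 472 with DESeq2, 360 at equal depth, 219 within 1 kb, 384 within 5 kb and 542 to 850 without 1 library; genes called lower, 1033, were 1921 in 2-kb counts, 462 with DESeq2, 477 at equal depth, 300 within 1 kb, 498 within 5 kb and 680 to 933. Member windows called higher, 3, were 5 in 2-kb counts with loess offsets, 6 without the filter, 1 at equal depth and 1 to 6 without 1 library; those called lower, 2, were 5 in 2-kb counts, 1 with DESeq2, 0 at equal depth and 0 to 2. Member genes called higher, 0, were 1 in 2-kb counts with loess offsets (Tcf7l2, 0.39) and 0 to 0 without 1 library. They were 1 within 1 kb (Ctnnb1, 1.20) and 2 within 5 kb (Ctnnb1 and Tcf7l2), where Ctnnb1 had its start window alone. Those called lower, 1, were 0 in 2-kb counts with or without loess offsets, with DESeq2 and with the replicate block. They were also 0 within 1 kb and within 5 kb, 2 within 200 kb, and 0 to 1 without 1 library. Pathway genes called higher, 5, were 9 in 2-kb counts with loess offsets, 2 with DESeq2, 2 at equal depth, 0 within 1 kb, 8 within 200 kb, 3 within 5 kb and 3 to 5 without 1 library; those called lower, 13, were 22 in 2-kb counts, 6 with DESeq2, 6 at equal depth, 4 within 1 kb, 7 within 5 kb and 7 to 12.

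Signs of gene sums turned at these settings: Tcf7l1 in 2-kb counts (-0.18), with loess offsets on them (-0.14) and over sets without 1 library (-0.28 to 0.30); Tcf7l2 at equal depth (-0.0083) and without 1 library (-0.029 to 0.19); Lgr4 in 2-kb counts with loess offsets (0.041); Axin2 in 2-kb counts (0.038), with loess offsets on them (0.24), with loess offsets in 200 bp (0.042), at equal depth (0.064) and within 5 kb (0.22); Znrf3 in 2-kb counts with loess offsets (0.11) and within 5 kb (0.15); Rnf43 with loess offsets (0.051), within 1 kb (0.44) and within 5 kb (0.47); and Cd44 (0.062) and Rgmb (0.058) within 1 kb. The cause was not tested. The replicate block ended the calls of Lef1, Axin1 (0.65, adjusted p = 0.0603) and Apc (-0.62, adjusted p = 0.0623) and of no other named gene or of the 5 called member windows. Depth limits Nkd1 and Tcf7l1, where no 200-bp window could be tested, and Tcf7, whose sums held 12 to 18 counts per library and were too shallow to test at equal depth.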
